A study of Mus musculus with 16 samples.

Results

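The Frizzled family comprises the receptors Fzd1 to Fzd10, and all 10 genes were found by symbol among the 30286 distinct symbols of a deposited expression table. RNA was measured in C57BL/6 mouse embryos at embryonic day 12, in the ectoderm that covers the facial prominences and in the mesenchyme beneath it, after surgical separation of the 2 layers. The groups were Esrp1-/- knockout (KO) ectoderm, wild-type (WT) ectoderm, Esrp1-/- KO mesenchyme and WT mesenchyme, with 4 libraries in each and tissue of 6 to 7 embryos pooled per library. Esrp1 is an RNA-binding protein that sets epithelial splicing patterns, and the study concerns orofacial clefts and Wnt signals exchanged by the layers. Nothing beyond the genotype is stated of the allele.

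Frizzled proteins are cell-surface receptors for Wnt ligands. They bind a Wnt through an extracellular cysteine-rich domain, cross the membrane several times and recruit the cytoplasmic protein Dishevelled through a short motif after the last membrane span. With the co-receptors Lrp5 and Lrp6 they signal through beta-catenin, and with Ror2, Ryk, Ptk7 or the Vangl and Celsr proteins they act in planar cell polarity and other beta-catenin independent responses. Members fall into subfamilies by sequence: Fzd1, Fzd2 and Fzd7; Fzd3 and Fzd6; Fzd5 and Fzd8; Fzd9 and Fzd10; and Fzd4 alone. In the mouse, Fzd1 and Fzd2 are needed together for palate closure, and Fzd3 and Fzd6 for neural tube closure and the alignment of hair.

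The Dishevelled-recruiting motif Lys-Thr-x-x-x-Trp occurred once, in frame, in each of the 10 coding sequences (GENCODE M21, GRCm38). The stretches of 30 bases around it are shown for 9 members because they set the subfamilies side by side, with the 6 codons of the motif in capitals.
Fzd1 (chr5:4755700-4755729, minus strand): tccggcAAGACACTGAATTCCTGGaggaag
Fzd2 (chr11:102606367-102606396, plus strand): tccggcAAGACACTGCACTCGTGGaggaag
Fzd7 (chr1:59484601-59484630, plus strand): tcgggcAAGACCCTGCAGTCATGGcgtcgc
Fzd3 (chr14:65212101-65212130, minus strand): agcaaaAAGACATGCTTTGAATGGgccagt
Fzd6 (chr15:39033943-39033972, plus strand): agcaaaAAGACGTGCACAGAATGGgccggg
Fzd4 (chr7:89408235-89408264, plus strand): tctgccAAAACTCTTCACACGTGGcaaaag
Fzd5 (chr1:64735005-64735034, minus strand): tccggcAAGACTCTGGAGTCTTGGcggcgg
Fzd9 (chr5:135249410-135249439, minus strand): agttccAAGACTTTTCAGACTTGGcagagc
Fzd10 (chr5:128602790-128602819, plus strand): acttccAAGACCCTGCAGTCCTGGcaacac
The motif began 22 codons before the last codon in Fzd1, Fzd2 and Fzd7, 164 and 211 codons before it in Fzd3 and Fzd6, and 38 to 60 codons before it in Fzd4, Fzd5, Fzd9 and Fzd10.

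Values are TPM, transcript abundances scaled for length and for the total, so that levels can be set side by side between genes. The table gives 1 value per group, so no difference below has a replicate check, no error or p-value can be given, and neighbouring levels cannot be tested against a spread. The depth behind each value is unknown. Ratios are log2 ratios of TPM + 1, a scale on which differences of weakly expressed genes are understated. To count as measured in a comparison, a gene needed an average of 1 TPM or more across its groups. "Called" means at least 1.5-fold apart between KO and WT, or at least 2-fold apart between layers, and describes the values only. The targeted gene Esrp1 was at 62.9 TPM in KO ectoderm against 170 TPM in WT ectoderm, and at 1.0 TPM in KO mesenchyme against 1.01 TPM in WT mesenchyme. All 20 ectoderm markers (Krt5, Cdh1 and others) were at least 2-fold higher in WT ectoderm than in WT mesenchyme, and all 20 mesenchyme markers (Prrx1, Col1a1 and others) at least 2-fold lower. In bulk tissue, fewer cells of a type and less RNA per cell cannot be told apart.

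Every Frizzled gene gave a value above 0 in every group, and the order of the levels differed between the layers. Fzd6, a receptor of planar cell polarity, led in ectoderm, with 43.3 TPM in KO ectoderm and 45.9 TPM in WT ectoderm. In mesenchyme it had 2.98 TPM in KO and 3.07 TPM in WT. Fzd2 led in mesenchyme, with 50.4 TPM in KO mesenchyme and 78.0 TPM in WT mesenchyme, and had 40.3 TPM in KO ectoderm and 28.1 TPM in WT ectoderm. Fzd2 was thus abundant on both sides of the tissue boundary, whereas the abundance of Fzd6 was in ectoderm. In WT ectoderm the order of the levels was Fzd6, Fzd10, Fzd2, Fzd7, Fzd1, Fzd3, Fzd8, Fzd4, Fzd5 and Fzd9. In WT mesenchyme it was Fzd2, Fzd1, Fzd7, Fzd10, Fzd4, Fzd3, Fzd8, Fzd6, Fzd9 and Fzd5. In KO ectoderm the order differed from WT ectoderm by an exchange of Fzd10 and Fzd2. In KO mesenchyme Fzd7 stood just above Fzd1, at 20.3 and 19.8 TPM, and Fzd3 stood directly above Fzd4, a gene that it followed in WT mesenchyme. Fzd10, directly above Fzd4 in WT mesenchyme at 16.1 TPM, stood directly below Fzd4 in KO mesenchyme, at 7.88 TPM.

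**Figure D1:**
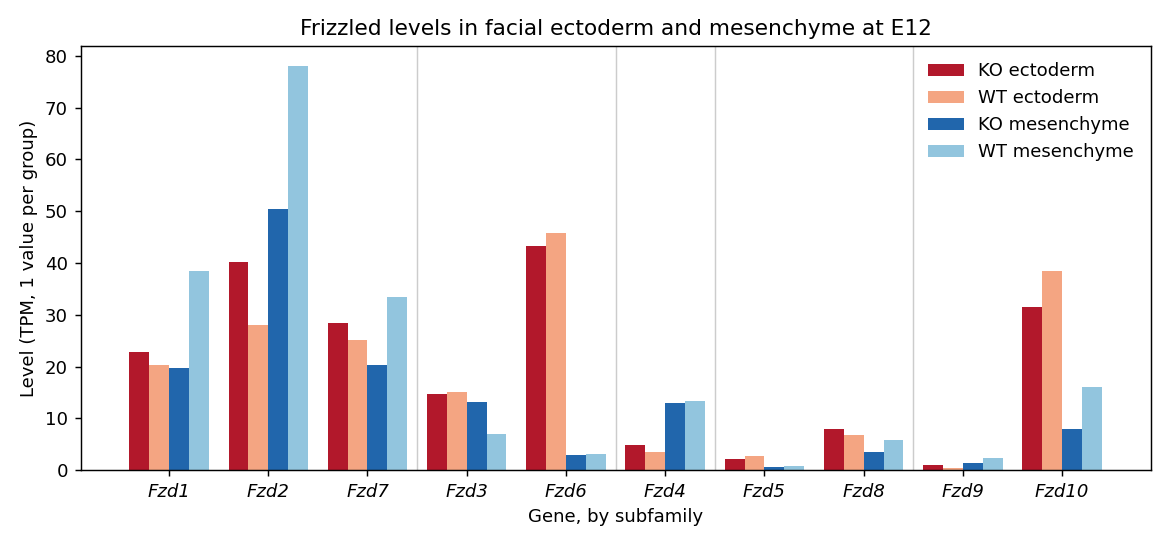
Level of each Frizzled gene in TPM (vertical axis), 1 bar per group, with genes arranged by subfamily. Fzd2 is the highest bar in both mesenchyme groups (50.4 TPM in KO and 78.0 TPM in WT), and Fzd6 in both ectoderm groups (43.3 TPM in KO and 45.9 TPM in WT).

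Summed over the family, KO ectoderm had 197 TPM and WT ectoderm 186 TPM, while KO mesenchyme had 133 TPM and WT mesenchyme 198 TPM. The ratio of the sums was 1.06 in ectoderm and 0.671 in mesenchyme, just inside 1.5-fold. Fzd1, Fzd2 and Fzd7 made up 46.5% of the sum in KO ectoderm and 39.5% in WT ectoderm, and 68.0% in KO mesenchyme and 75.5% in WT mesenchyme. Fzd3 and Fzd6 made up 29.4% in KO ectoderm and 32.7% in WT ectoderm, and 12.2% in KO mesenchyme and 5.07% in WT mesenchyme. Mesenchyme therefore drew mainly on the Fzd1, Fzd2 and Fzd7 subfamily, and ectoderm on that subfamily, Fzd6 and Fzd10. Fzd4 held 9.70% of the sum in KO mesenchyme and 6.78% in WT mesenchyme, but 2.47% in KO ectoderm and 1.89% in WT ectoderm.

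**Figure D2:**
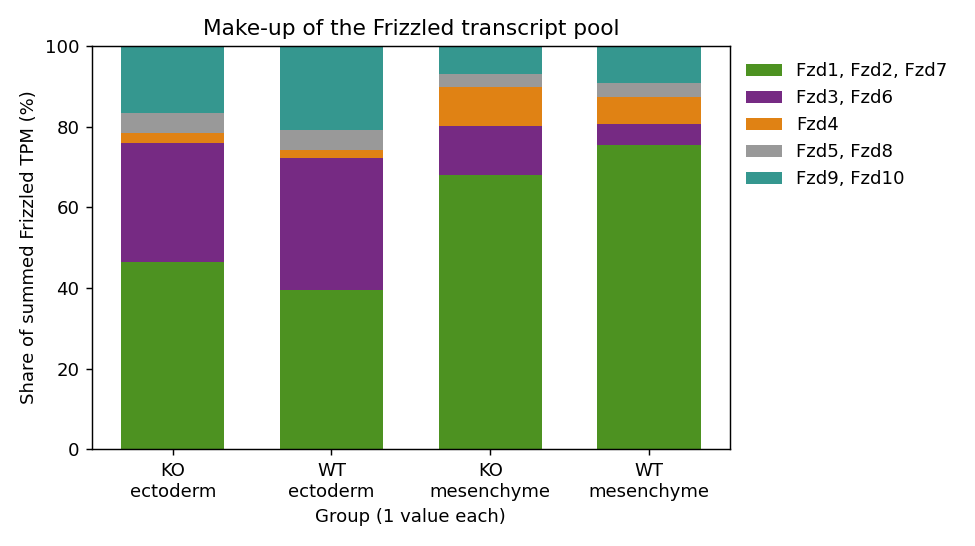
Share of the summed Frizzled TPM (vertical axis, percent) held by each subfamily in the 4 groups, 1 value per group. Fzd1, Fzd2 and Fzd7 hold 68.0% in KO mesenchyme and 75.5% in WT mesenchyme, against 46.5% in KO ectoderm and 39.5% in WT ectoderm.

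Between the layers of WT embryos, 6 of the 10 Frizzled genes were called, 3 higher and 3 lower in ectoderm. Of all 14242 genes measured 18.9% were called, 6.88% higher and 12.1% lower, with a median log2 ratio of -0.15 over the whole set. Higher genes made up 36.3% of the calls, and 46.3% after quantile normalization. Fzd6 had the highest ratio of the family at 3.53, an 11.5-fold difference on the TPM + 1 scale. Fzd10 had 38.4 TPM in WT ectoderm and 16.1 TPM in WT mesenchyme (1.2). Fzd3 had 15.0 TPM in WT ectoderm and 7.0 TPM in WT mesenchyme and lay at the limit (1.0), and was inside it after subtraction of the trend with transcript GC content described below (0.99) and at a pseudocount of 5 (0.74). The 3 genes lower in ectoderm were Fzd4, Fzd2 and Fzd9. Fzd4, also the receptor for the non-Wnt ligand Norrin in retinal vessels, had 3.53 TPM in WT ectoderm and 13.5 TPM in WT mesenchyme (-1.67). Fzd2 had a ratio of -1.44. Fzd9 had 0.45 TPM in WT ectoderm and 2.32 TPM in WT mesenchyme (-1.2). The call of Fzd9, a gene of low level, was lost after subtraction of the trend with GC (-0.86) and at a pseudocount of 5 (-0.43), and with a minimum mean of 5 TPM the gene was not measured. Fzd1 and Fzd7 were on the same side as Fzd2, with smaller ratios. Fzd1 had 20.4 TPM in WT ectoderm and 38.4 TPM in WT mesenchyme (-0.88). Fzd7 had 25.2 TPM in WT ectoderm and 33.4 TPM in WT mesenchyme (-0.40). Fzd5, a receptor with roles in eye development, had 2.66 TPM in WT ectoderm and 0.88 TPM in WT mesenchyme (0.96), just under the limit. It passed 2-fold with columns rescaled to equal totals (1.03), after median subtraction (1.11), quantile normalization (1.16) or subtraction of the trend with length (1.10) or GC (1.17), and at a pseudocount of 0.1 (1.49), but at a pseudocount of 5 its ratio was 0.38. Its subfamily partner Fzd8 had 6.76 TPM in WT ectoderm and 5.82 TPM in WT mesenchyme (0.19). The 2 members of this pair were at low levels in both layers.

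Levels in the opposite layer were set beside the markers of that layer. The median ectoderm marker stood in WT mesenchyme at 0.934% of its level in WT ectoderm, and Fzd6 at 6.69%. The median mesenchyme marker stood in WT ectoderm at 4.05% of its level in WT mesenchyme, and Fzd4 at 26.2%. Over the 4 group values, the genes whose centred pattern was most like that of Fzd6 were Dmrt2, Tgm1 and Macc1, with root mean square differences of 0.03, 0.03 and 0.04 on the log2 scale among 10770 protein-coding genes. For Fzd4 they were Hacd1, Gas2 and B230217C12Rik, each at 0.03.

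In KO embryos the layers were closer together than in WT embryos for Fzd1, Fzd2, Fzd3, Fzd4 and Fzd9, and further apart for Fzd8 and Fzd10. Fzd1 and Fzd7 differed in the opposite direction. Between the KO layers 3 of 10 were called, Fzd6 (log2 ratio 3.47) and Fzd10 (1.87) higher and Fzd4 (-1.25) lower in ectoderm, against 15.9% of all genes (9.06% higher and 6.88% lower). Fzd1 had 22.8 TPM in KO ectoderm and 19.8 TPM in KO mesenchyme, so that its layer ratio was 0.19 in KO embryos and -0.88 in WT embryos. For Fzd7, with 28.4 TPM in KO ectoderm and 20.3 TPM in KO mesenchyme, the layer ratio was 0.47 in KO embryos and -0.40 in WT embryos. Both genes were higher in ectoderm in KO embryos and higher in mesenchyme in WT embryos. The sign for Fzd1 in KO embryos was the opposite, at -0.08, after the trend with transcript GC content described below was subtracted. Fzd2 had a layer ratio of -0.32 in KO embryos and -1.44 in WT embryos. Fzd3 had 14.6 TPM in KO ectoderm and 13.2 TPM in KO mesenchyme, with a layer ratio of 0.14 in KO embryos and 1.0 in WT embryos. Fzd9, with 1.01 TPM in KO ectoderm and 1.34 TPM in KO mesenchyme, had a layer ratio of -0.22 in KO embryos and -1.2 in WT embryos. Fzd4 had a layer ratio of -1.25 in KO embryos and -1.67 in WT embryos. For Fzd8 the ratio was 0.95 in KO and 0.19 in WT embryos, and for Fzd10 1.87 in KO and 1.2 in WT embryos. Fzd5 (0.88 in KO and 0.96 in WT) and Fzd6 had nearly the same ratio in both genotypes.

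**Figure D3:**
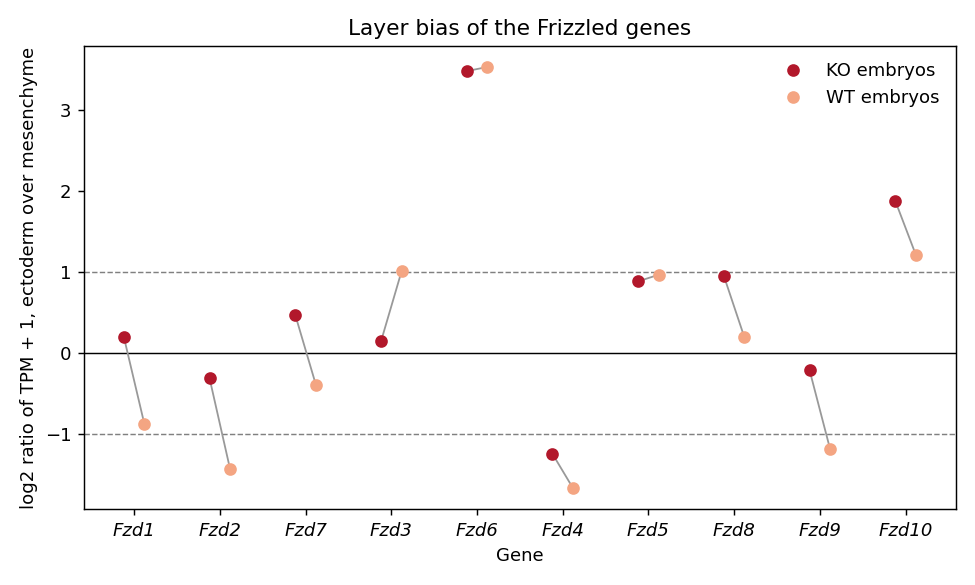
Log2 ratio of TPM + 1 between ectoderm and mesenchyme (vertical axis) for each Frizzled gene, KO embryos in dark red left of WT embryos in light red, with dashed lines at 2-fold. The points of Fzd1 (0.19 in KO and -0.88 in WT) and Fzd7 (0.47 in KO and -0.40 in WT) lie on opposite sides of 0, and those of Fzd6 (3.47 in KO and 3.53 in WT) nearly coincide.

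In KO ectoderm against WT ectoderm, none of the 9 measured Frizzled genes was called, against 5.37% of all 13935 genes (4.92% higher and 0.452% lower). Of the called genes 91.6% were higher, and 78.1% after quantile normalization. The median of the 9 was 0.16, and that of all genes 0.05. Fzd2 had the highest ratio at 0.50, with 40.3 TPM in KO ectoderm and 28.1 TPM in WT ectoderm. Fzd4 followed at 0.37, with 4.85 TPM in KO and 3.53 TPM in WT ectoderm. Both genes have their higher level in mesenchyme. Fzd10 had the lowest ratio at -0.28, with 31.5 TPM in KO and 38.4 TPM in WT ectoderm. Fzd5 had 2.09 TPM in KO and 2.66 TPM in WT ectoderm (-0.24). Of the measured genes 2.68% had a lower ratio than Fzd10, and 3.60% a lower ratio than Fzd5. The ratio of Fzd5, a gene of low level, was -0.11 at a pseudocount of 5 and -0.45 after quantile normalization. Fzd10 and Fzd5 have their higher level in ectoderm. Fzd1 (0.16), Fzd7 (0.17), Fzd8 (0.19), Fzd3 (-0.04) and Fzd6 (-0.08) lay closer to 0. Fzd9, with 1.01 TPM in KO and 0.45 TPM in WT ectoderm, was under the limit for being measured.

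Markers of other cells differed between KO and WT ectoderm as well. Of 20 mesenchyme markers 17 were called higher and none lower, their summed level was 862 TPM in KO ectoderm and 421 TPM in WT ectoderm, and none of them was at 0 in either group. The median gain of those at least 5-fold higher in WT mesenchyme equalled 10.8% of the mesenchyme excess (quartiles 7.5% to 11.5%, 18 genes). The gain of Fzd2 equalled 24.3% of its mesenchyme excess, that of Fzd1 13.7%, that of Fzd4 13.3% and that of Fzd7 39.2%. These Frizzled genes were themselves less than 5-fold higher in WT mesenchyme, so their shares are not directly comparable with that of the markers. For Fzd7 the share was a gain of 3.24 TPM over an excess of 8.26 TPM. After subtraction of the median share, the ratio of Fzd2 was 0.30, that of Fzd7 0.12, that of Fzd4 0.08 and that of Fzd1 0.04. Fzd10 was then at -0.18 and Fzd5 at -0.16, while Fzd3 and Fzd6 were on the other side of 0, at 0.04 and 0.06. Endothelial markers were higher in 10 of 10 cases, muscle markers in 8 of 8, markers of nasal and olfactory ectoderm in 10 of 10, neuron markers in 5 of 9, macrophage markers in 4 of 7 and red blood cell markers in 1 of 8, with none lower. Of 20 ectoderm markers 2 were lower and none higher. The 2 were the targeted gene Esrp1 itself, which is on that list, and the keratin gene Krt15, at 97.9 TPM in KO ectoderm and 321 TPM in WT ectoderm. Their part in the Frizzled values, beyond this subtraction, was not tested.

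In KO mesenchyme against WT mesenchyme, 5 of the 9 measured Frizzled genes were called, 4 lower and 1 higher. Of all 14233 genes 15.7% were called, 13.4% lower and 2.33% higher. Higher genes made up 14.9% of these calls, 39.8% after quantile normalization and 33.6% after subtraction of the median of all genes. The median log2 ratio of the 9 was -0.57, and that of all genes -0.12. Fzd10 had 7.88 TPM in KO mesenchyme and 16.1 TPM in WT mesenchyme (-0.95). Fzd1 had 19.8 TPM in KO and 38.4 TPM in WT mesenchyme (-0.92). Both were at about the same fraction of WT, and 2.52% and 2.85% of the measured genes had lower ratios. Fzd7 had 20.3 TPM in KO and 33.4 TPM in WT mesenchyme (-0.69). Fzd2 had 50.4 TPM in KO and 78.0 TPM in WT mesenchyme (-0.62). All 3 members of the Fzd1, Fzd2 and Fzd7 subfamily were therefore called lower, and together they had 90.5 TPM in KO mesenchyme against 150 TPM in WT mesenchyme. After subtraction of the median of all genes, Fzd10 (-0.82) and Fzd1 (-0.80) stayed past 1.5-fold, and Fzd7 (-0.57) and Fzd2 (-0.50) did not. Quantile normalization, which moved the median of all genes to 0.02, left the same pair of lower calls, Fzd10 at -0.79 and Fzd1 at -0.71.

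Fzd3 was the member with the higher level in KO mesenchyme, at 13.2 TPM against 7.0 TPM in WT mesenchyme (0.83). Of the measured genes, 99.0% had a lower ratio. Fzd3 acts in axon guidance as well as in planar polarity. Neuron markers were also higher in KO mesenchyme, 5 of 10 by 1.5-fold and none lower (after subtraction of the trend with GC, 9 of 10), with a summed level of 433 TPM in KO and 279 TPM in WT mesenchyme and none at 0. Their part in the value of Fzd3 was not tested. Fzd6, the subfamily partner of Fzd3, had 2.98 TPM in KO and 3.07 TPM in WT mesenchyme (-0.03), and Fzd4 had 12.9 TPM in KO and 13.5 TPM in WT mesenchyme (-0.06). Neither gene shared the lower values of the other members, and after quantile normalization both were above 0 (0.02 for Fzd6 and 0.13 for Fzd4). Fzd8 had 3.61 TPM in KO and 5.82 TPM in WT mesenchyme (-0.57), just inside the limit. Fzd9, at 1.34 TPM in KO and 2.32 TPM in WT mesenchyme, was at -0.50. Fzd5 was under the limit for being measured, with 0.68 TPM in KO and 0.88 TPM in WT mesenchyme. Among the markers of other cells, 10 of 20 mesenchyme, 3 of 10 endothelial, 4 of 10 muscle and 4 of 5 nasal markers were called lower. Of 8 red blood cell markers 1 was lower and 1 higher, and none of the 13 ectoderm and 7 macrophage markers was called. After subtraction of the trend with GC, 7 mesenchyme, 1 endothelial, 1 muscle and 1 nasal marker were lower. With that subtraction no red blood cell marker was lower. Markers called higher were then 2 of ectoderm, 1 nasal, 1 of red blood cells and 1 of macrophages.

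**Figure D4:**
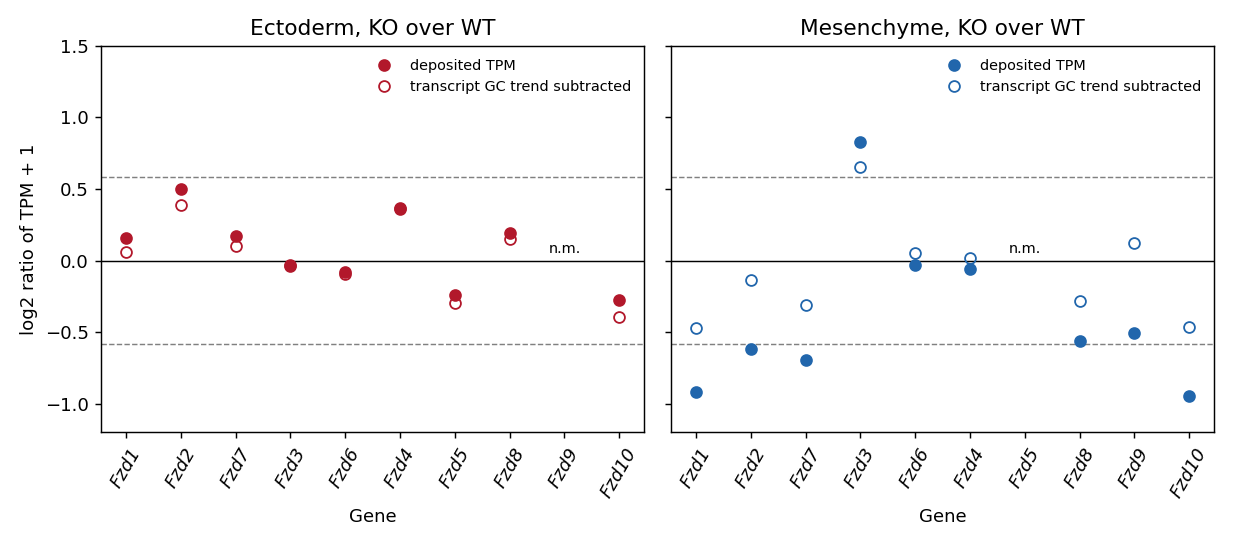
Log2 ratio of TPM + 1 between KO and WT (vertical axis) for each Frizzled gene in ectoderm (left, red) and mesenchyme (right, blue), from deposited TPM (filled) and after subtraction of the trend with transcript GC content (open); dashed lines mark 1.5-fold and n.m. means not measured. In mesenchyme the filled points of Fzd1, Fzd2, Fzd7 and Fzd10 lie below the lower line (-0.92, -0.62, -0.69 and -0.95), their open points do not, and both points of Fzd3 (0.83 and 0.66) lie above the upper line.

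The called Frizzled genes of KO mesenchyme differed in the base composition of their transcripts. Transcript GC content was 55.7% in Fzd1, 56.6% in Fzd2, 53.9% in Fzd7 and 56.5% in Fzd10, and 40.3% in Fzd3. Fzd4 and Fzd6, which were level between KO and WT, had 47.0% and 47.4%. Ratios of all genes moved with this property in the same comparison. With genes put in 5 equal bins by GC content, bin 1 being the lowest, the median ratio in bin 1 was 0.16, with 4.96% called higher and 0.531% lower. In bin 5 it was -0.46, with 0.992% higher and 36% lower. Fzd3 lies in bin 1, Fzd4 and Fzd6 in bin 2, Fzd7 and Fzd8 in bin 4, and Fzd1, Fzd2, Fzd9 and Fzd10 in bin 5. After subtraction of the trend with GC, the ratio was -0.47 for Fzd1, -0.46 for Fzd10, -0.31 for Fzd7 and -0.14 for Fzd2, none of them past 1.5-fold. That of Fzd3 was 0.66 and stayed past it. Fzd9 was then at 0.12 and Fzd8 at -0.28. In ectoderm the median was close to 0 in bin 1 and 0.16 in bin 5. Libraries with 2 index barcodes in place of 1 numbered 2 of 4 in KO mesenchyme and 0 of 4 in WT mesenchyme, and 2 of 4 in KO ectoderm and 1 of 4 in WT ectoderm. With 1 value per group, the kind of index and the genotype cannot be told apart.

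**Figure D5:**
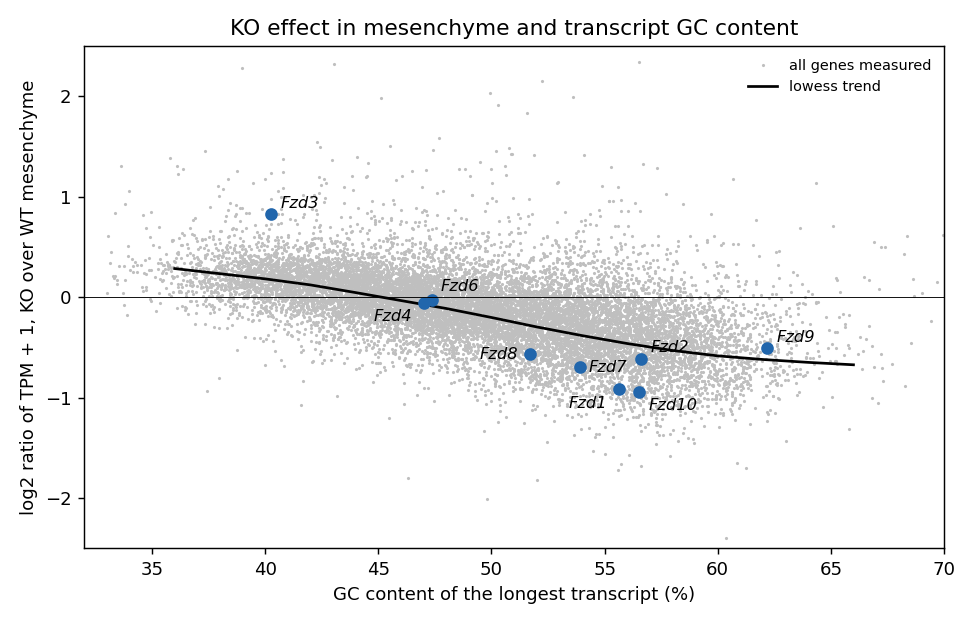
Log2 ratio of TPM + 1 between KO and WT mesenchyme (vertical axis) against the GC content of the longest transcript (horizontal axis, percent) for all measured genes (grey) and the 9 measured Frizzled genes (blue), with the lowess trend in black; genes beyond the axis limits are not drawn. Fzd1 (55.7% GC), Fzd7 (53.9%) and Fzd10 (56.5%) lie below the trend, and Fzd3 (40.3%) above it.

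Gene structure differed between the members as well. Per GENCODE M21 the coding sequence lies in 1 exon in Fzd1, Fzd2, Fzd5, Fzd7, Fzd8, Fzd9 and Fzd10, in 2 exons in Fzd4 and in 6 exons in Fzd3 and in Fzd6. At the third codon position, G or C made up 75.7% to 85.3% in the 7 genes with 1 coding exon, 63.9% in Fzd4, 52.0% in Fzd6 and 47.6% in Fzd3. Fzd3 also has the longest transcript of the family, at 12734 bases, and Fzd9 the shortest, at 2293 bases. Fzd1 lies at chr5:4753839-4758035, Fzd10 at chr5:128600844-128604093 and Fzd9 at chr5:135248938-135251230 on GRCm38. Fzd2 lies at chr11:102604396-102608058, Fzd3 at chr14:65192449-65262463, Fzd4 at chr7:89404355-89413134 and Fzd6 at chr15:39006034-39038188. Fzd5 and Fzd7 are both on chromosome 1, at 64730558 to 64737751 and 59482424 to 59486955. Fzd8 is a gene of chromosome 18 (9212163 to 9218136).

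The KO effects of the layers were also set against each other, as the ectoderm log2 ratio minus the mesenchyme log2 ratio. Of the 10 genes, 2 were at least 2-fold apart, Fzd2 (1.12) and Fzd1 (1.08), both with the higher value in ectoderm, against 7.93% of all genes (7.34% with the higher value in ectoderm and 0.593% with the lower). Genes with the higher value in ectoderm were 92.5% of the calls, 72.8% after quantile normalization and 79.6% after median subtraction. Fzd2 was at 0.50 in ectoderm and -0.62 in mesenchyme, and Fzd1 at 0.16 in ectoderm and -0.92 in mesenchyme. Fzd3 was at the other end, at -0.87, within 2-fold, and 0.921% of the measured genes had a lower difference. After subtraction of the trend with GC, Fzd1 and Fzd2 were both at 0.53 and no member was 2-fold apart.

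Other genes of the pathway were described by lists, given as the number called at 1.5-fold in KO against WT. Over all measured genes 13.4% were lower and 2.33% higher in mesenchyme, and 4.92% were higher and 0.452% lower in ectoderm. The lists are short, so that 1 or 2 calls can be a large part of a list, and no count was tested against these shares. Planar polarity genes, with 2 of 13 lower in mesenchyme, lie near the 13.4% of all genes. Wnt ligands, with 2 of 14 lower in ectoderm, lie above the 0.452% of all genes. In mesenchyme the co-receptors had 3 of 6 lower and none higher (median -0.84), and 1 of 6 after subtraction of the trend with GC. Lrp5, a partner of Frizzled in beta-catenin signalling, had 14.1 TPM in KO and 37.7 TPM in WT mesenchyme (-1.36, and -0.95 after the subtraction). Lrp6, which has the same role, had 33.2 TPM in KO and 36.1 TPM in WT mesenchyme (-0.12). The other 2 lower co-receptors were Ror2 (-1.14) and Ptk7 (-1.15). Dishevelled and Daam genes, which act just below Frizzled, had 3 of 5 lower (median -0.79), and 1 after the subtraction. Among feedback regulators and targets of the pathway, 7 of 11 were lower, and 3 after the subtraction. Members of the beta-catenin arm had 4 of 11 lower, Wnt ligands 2 of 7, the Norrin and Wnt7 cofactors 1 of 3 and the Shisa genes, of a family known from Xenopus for holding Frizzled in the endoplasmic reticulum, 1 of 2, and after the subtraction none of these was lower. Planar polarity genes had 2 of 13 lower, and after the subtraction none lower and 1 higher. The secreted binders, which carry a Frizzled-like domain or otherwise bind Wnts, had 1 of 5 lower with and without the subtraction. The genes that govern Frizzled turnover at the surface, Rnf43, Znrf3, the Lgr receptors and the R-spondins, had none of 7 called. Smo, the Hedgehog transducer related to Frizzled in structure, had 74.7 TPM in KO and 113 TPM in WT mesenchyme (-0.59), and -0.07 after the subtraction. In ectoderm the turnover list had 3 of 8 higher, the R-spondins Rspo1, Rspo2 and Rspo3 (0.88 to 1.04), and the secreted binders 2 of 4, Frzb (1.94) and Sfrp2 (1.09), genes whose higher level is in mesenchyme. The remaining lists had 2 of 14 higher and 2 lower (Wnt ligands), 1 of 6 higher (co-receptors), 1 of 3 (cofactors), 1 of 5 (Dishevelled and Daam), 1 of 12 (planar polarity), 2 of 12 (feedback and targets) and none (beta-catenin arm, Shisa genes and Smo), with none lower outside the ligands. After subtraction of the trend with GC in ectoderm, 4 ligands and 1 feedback or target gene were lower, no co-receptor was called, and the counts of the other lists were as before.

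Promoter sequence was examined for 6 members from their RefSeq starts (GRCm38.p6), as the 250 bases before the annotated start. Fzd8 was left out of this step. Fzd1 and Fzd7 are shown because they belong to 1 subfamily and were both lower in KO mesenchyme; capitals mark GGGCGG on either strand.
Fzd1 (chr5:4758217-4758466, minus strand): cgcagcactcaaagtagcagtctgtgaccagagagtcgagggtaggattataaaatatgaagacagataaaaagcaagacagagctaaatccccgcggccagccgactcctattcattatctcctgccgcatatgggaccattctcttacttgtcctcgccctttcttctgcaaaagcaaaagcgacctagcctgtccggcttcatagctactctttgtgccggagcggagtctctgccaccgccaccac
Fzd7 (chr1:59481897-59482146, plus strand): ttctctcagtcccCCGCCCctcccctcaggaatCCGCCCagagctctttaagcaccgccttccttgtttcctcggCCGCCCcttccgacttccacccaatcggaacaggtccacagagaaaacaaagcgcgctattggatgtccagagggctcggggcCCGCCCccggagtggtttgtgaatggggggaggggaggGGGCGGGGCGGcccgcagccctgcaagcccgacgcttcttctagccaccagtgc
Fzd7 had 6 matches to GGGCGG and Fzd1 had none, while 32.7% of all 32851 promoters had at least 1. Fzd4, Fzd5, Fzd9 and Fzd10 had 7, 9, 1 and 1 matches. Fzd1 had the lowest GC content of the 6, at 51.2%, and the others had 65.2% to 76.4%, against a median of 52.4% over all promoters. TATAAA, on either strand, was found in Fzd1 alone of the 6 and in 12.4% of all promoters. CCAAT was found in Fzd4, Fzd5 and Fzd7 and in 33.8% of all promoters. CTTTGNT, where N is any base, was found in Fzd7 alone and in 16.0% of all promoters. This pattern is close to the core of the site of Tcf and Lef factors but not identical to it. The promoters of Fzd1 and Fzd7 shared none of these 4 motifs, counting either strand. RefSeq and GENCODE place the starts of these genes at different positions, so that the windows depend on the RefSeq start. The window of Fzd10 lies wholly inside the gene as GENCODE places it, and so does most of the window of Fzd9.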

How the data were processed

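The authors deposited 1 table with a TPM value per gene symbol and group, and none per library. The submitters' processing notes name STAR 2.5.2a, kallisto 0.43.0 and mm10. The source of the TPM, the annotation and the way 4 libraries became 1 column were not given in the sources used here. Column sums were 917993 to 977371 TPM, and TPM keep no depth. For the 103 symbols found in several rows, none a Frizzled gene, 1 row each was used. Log2 ratios used a pseudocount of 1 TPM and a minimum mean of 1 TPM. Trends with GC content and log2 length of the longest GENCODE M21 transcript (known for 99.0% of symbols) were fitted by lowess and subtracted. The fit used a fraction of 0.3, genes at 5 TPM or more and statsmodels 0.14.6. Only the GC subtraction was tried on simulated data. That simulation had a linear trend, no noise, no pseudocount and only genes at 5 TPM or more. The length subtraction and genes at lower levels were not covered by it. No test was run. The genes named in the text are the 10 members, up to 4 members of a list past the fold, and those of most similar pattern. Members, lists and limits were chosen with earlier results of these data known. Alternatives covered the pseudocount, filter, scaling, GC, length, fold, duplicate symbols and mesenchyme RNA.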

Additional observations from a re-analysis of the deposited data

Results flagged for a closer look

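The KO effect of Fzd1 and of Fzd2 had opposite signs in the layers and differed by at least 2-fold. The ectoderm ratio minus the mesenchyme ratio was 1.08 for Fzd1 and 1.12 for Fzd2 on the log2 scale. The difference was not tested, since each group has 1 value. With the trend with transcript GC subtracted it was 0.53 for both. It was also inside 2-fold for Fzd1 and Fzd2 after median subtraction (0.89 and 0.93) and quantile normalization (0.81 and 0.86). After subtraction of the length trend it was 0.82 and 0.85. The ectoderm ratio of Fzd1 was 0.16, and 0.04 with the mesenchyme share subtracted.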

How the results depend on the processing

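No paired analysis was possible because the table holds 1 column per group, and for the same reason no library could be left out. Over the alternatives, 534 of the Frizzled ratios kept their direction and side of the limit, 26 came past it, 46 came inside it and 16 uncalled ratios changed sign; no called ratio changed sign. In mesenchyme, 5 Frizzled genes were called in KO against WT, but 3 after quantile normalization, subtraction of the median of all genes or subtraction of the length trend, 1 after subtraction of the GC trend or of both trends, and 0 at 2-fold. In ectoderm 0 were called, and 1 at 1.3-fold. Between WT layers 6 were called, and 1 at 4-fold. Between KO layers 3 were called, but 5 at a pseudocount of 0.1 or at 1.5-fold and 1 at 4-fold. For the difference of the KO effects 2 were called, but 1 at a pseudocount of 5, after quantile normalization or after median subtraction (Fzd3 in place of Fzd1 and Fzd2 under the normalization and the subtraction), 0 after subtraction of the GC trend, the length trend or both, 7 at 1.5-fold and 0 at 4-fold. Settings that changed a count by 1.5-fold or less are left out of these lists. Among them, a pseudocount of 0.1 brought Fzd9 past 2-fold for the difference of the KO effects (1.76). The same setting brought Fzd8 (-0.67) and Fzd9 (-0.75) past 1.5-fold in KO against WT mesenchyme. The summed mesenchyme ratio was 0.665 with columns rescaled to equal totals, past 1.5-fold. Without Fzd2 the summed ratio was 0.989 for KO against WT ectoderm and 1.31 for WT ectoderm against WT mesenchyme.

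Counts over all genes moved too. KO against WT mesenchyme gave 2234 calls, and 1258 at a pseudocount of 5, 984 after subtraction of the GC trend, 1480 after that of length, 732 after both, 4604 at 1.3-fold and 350 at 2-fold. KO against WT ectoderm gave 749 calls, and 268 at a pseudocount of 5, 357 at a mean of 5 TPM, 354 with the mesenchyme share subtracted, 1552 at 1.3-fold and 245 at 2-fold. WT layers gave 2698 calls, and 1482 at a pseudocount of 5, 1771 at a mean of 5 TPM, 4602 at 1.5-fold and 991 at 4-fold. KO layers gave 2297, and 1155 at a pseudocount of 5, 4465 at 1.5-fold and 637 at 4-fold. The difference of the KO effects gave 1137, and 1738 and 462 at pseudocounts of 0.1 and 5, 658 after quantile normalization, 737 after median subtraction, 487, 660 and 441 after subtraction of GC, length and both, 3617 at 1.5-fold and 96 at 4-fold. Where no value above shows it, the cause was not tested. Depth is unknown, so the counting error of Fzd5 and Fzd9, the members at the lowest levels, cannot be given.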
